A study of Mus musculus with 22 samples.

Results

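The genes of glycolysis and of the response to low oxygen were followed through RNA counts of sorted mouse embryo cells. The set holds 35 named genes, of which 34 were found by their symbol among the 55376 genes of the files: 15 enzymes of the glycolytic chain, 2 enzymes that set the activity of phosphofructokinase, 6 genes of lactate and pyruvate handling and 11 other targets of the hypoxia-inducible factors. The member not found by its symbol was Ca9, carbonic anhydrase 9, which the files list as Car9 and which is given with the further pathway genes. All 34 passed the filter on low counts in every comparison. All cells were taken from mouse embryos at embryonic day 12.5 and sorted by fluorescence. Motor neurons were collected as GFP-positive cells of an ISL1::GFP reporter, Isl1 being a transcription factor gene that defines them, and endothelial cells, the lining of vessels, as Cherry-positive cells of a Kdr::Cherry reporter, Kdr being the receptor of vascular growth factor. A knockout series held both cell types from spinal cord dissected with the surrounding meninges, from wild-type (WT) embryos and from Plxnd1 knockout (KO) embryos, whose missing receptor, plexin-D1, binds semaphorins. A second, regional series held WT endothelial cells of the meninges and of the cord parenchyma, and the parenchyma was ventral cord in batches 1 to 3 and whole cord in batches 4 and 5. Embryos of a genotype were pooled before dissociation. How many embryos a pool held, the deleted part of Plxnd1 and the strain were not given in the sources used here.

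Glycolysis splits glucose into pyruvate in the cytosol through a chain of enzymes that runs from hexokinase to pyruvate kinase, and several of its steps have more than a single enzyme, made from separate genes. Lactate dehydrogenase turns pyruvate into lactate, which leaves the cell through monocarboxylate transporters, while pyruvate dehydrogenase, inside mitochondria, turns pyruvate into acetyl-CoA unless it is switched off by its kinases. When oxygen is low, the hypoxia-inducible factors escape hydroxylation by the Egln enzymes, pair with Arnt and bind short sequences built around ACGTG or GCGTG near many of these genes. Growing vessels are known to draw much of their energy from glycolysis.

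Of 22 libraries 21 were used, because the library labelled wild-type endothelial, batch 2, held the same count as knockout endothelial batch 1 in all 55376 genes. This left 2 wild-type endothelial libraries, 3 libraries in each other knockout-series group and 5 in each regional group. Totals ran from 20680902 to 27035395 counts in the knockout series and from 15685784 to 21493255 in the regional series. Levels are given as CPM, counts relative to the library total after scaling by the trimmed mean of M-values (TMM), in batch order: batches 1 and 3 for wild-type endothelial cells, 1 to 3 for the other groups of the knockout series and 1 to 5 for the regional groups. Plxnd1 was at 213 and 175 CPM in wild-type against 28.9, 15.4 and 18.7 CPM in knockout endothelial cells, and at 12.1, 5.14 and 7.80 CPM in wild-type against 1.79, 0.646 and 0.771 CPM in knockout motor neurons, so each knockout library was below each wild-type library of its cell type. In endothelial cells of the knockout series the 15 endothelial markers summed to 687 to 1566 CPM, while 12 markers of meningeal and mesenchymal cells summed to 15736 to 18668 CPM, so these libraries held much RNA that their label does not name. The 11 motor neuron markers summed to 765 to 2198 CPM in motor neurons and to 176 to 217 CPM in endothelial cells, where only Mnx1 and Chat stayed under 1 CPM. Isl1 was at 16.7 to 44.9 CPM in wild-type and 28.4 to 38.7 CPM in knockout endothelial cells. In motor neurons it was at 126 to 274 CPM in wild type and 130 to 291 CPM in the knockout. In such bulk samples fewer cells of a type and less RNA per cell cannot be told apart.

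The promoters of 6 members are shown because these genes carry the largest differences described below: Slc16a3, P4ha2, Eno1 and Ldha had the largest log2 fold changes among the members called in Plxnd1 knockout endothelial cells, and Adm and Ankrd37 had the largest rises among hypoxia targets in spinal against meningeal endothelial cells. Each line gives the 250 bases before a transcription start (RefSeq, build GRCm38.p6), 5′ to 3′ on the strand of the gene, with every ACGTG or GCGTG on either strand in capitals.
Slc16a3, chr11:120948817-120949066, plus strand: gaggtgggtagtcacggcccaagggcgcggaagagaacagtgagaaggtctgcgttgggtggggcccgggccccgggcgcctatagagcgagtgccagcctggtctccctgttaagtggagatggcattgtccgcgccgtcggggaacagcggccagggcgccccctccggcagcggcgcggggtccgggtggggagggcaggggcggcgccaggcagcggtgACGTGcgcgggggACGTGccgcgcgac
P4ha2, chr11:54100674-54100923, plus strand: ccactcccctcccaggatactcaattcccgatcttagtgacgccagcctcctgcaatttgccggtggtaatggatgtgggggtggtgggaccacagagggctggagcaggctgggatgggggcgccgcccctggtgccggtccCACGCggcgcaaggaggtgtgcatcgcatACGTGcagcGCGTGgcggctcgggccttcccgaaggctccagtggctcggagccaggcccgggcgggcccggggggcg
Eno1, chr4:150236458-150236707, plus strand: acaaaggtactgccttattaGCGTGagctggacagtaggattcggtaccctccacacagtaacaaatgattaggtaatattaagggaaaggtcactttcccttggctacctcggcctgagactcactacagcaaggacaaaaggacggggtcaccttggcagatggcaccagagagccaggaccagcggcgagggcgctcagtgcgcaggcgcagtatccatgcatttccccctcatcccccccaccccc
Ldha, chr7:46845554-46845803, plus strand: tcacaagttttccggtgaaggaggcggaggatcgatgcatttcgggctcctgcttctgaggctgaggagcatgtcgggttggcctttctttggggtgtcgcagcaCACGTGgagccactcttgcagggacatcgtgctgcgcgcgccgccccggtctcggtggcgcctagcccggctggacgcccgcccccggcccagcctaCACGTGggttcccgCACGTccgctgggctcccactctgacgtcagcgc
Adm, chr7:110627407-110627656, plus strand: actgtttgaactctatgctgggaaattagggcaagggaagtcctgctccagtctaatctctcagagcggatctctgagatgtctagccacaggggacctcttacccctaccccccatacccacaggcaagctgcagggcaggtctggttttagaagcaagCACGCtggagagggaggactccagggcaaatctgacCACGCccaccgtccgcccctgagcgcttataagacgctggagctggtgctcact
Ankrd37, chr8:45999851-46000100, minus strand: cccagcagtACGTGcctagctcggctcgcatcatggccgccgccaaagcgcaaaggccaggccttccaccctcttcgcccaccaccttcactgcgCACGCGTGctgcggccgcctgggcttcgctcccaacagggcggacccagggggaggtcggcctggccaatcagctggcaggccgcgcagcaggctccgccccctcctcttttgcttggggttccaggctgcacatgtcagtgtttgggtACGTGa
The 6 stretches differ in how often they hold the letters: Ldha has 5 matches, Ankrd37 has 4, P4ha2 has 3, Slc16a3 and Adm have 2 each, and Eno1 has 1. In Ldha 4 of the 5 come from CACGTG, which reads the same on both strands and is counted on each.

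Both letter strings were searched on both strands of 300-base windows, from 250 bases before to 50 bases after a start, taking for each gene the window nearest to the outer start of its deposited gene model. At least 1 match was found in 25 of 33 members with a window, or 75.8 %, against 43.8 % of all 32851 windows. By role the count was 9 of 15 for the chain, 2 of 2 for phosphofructokinase control, 5 of 6 for lactate and pyruvate, and 9 of 10 for the other hypoxia targets. The members' windows also had a median G and C content of 62.3 % against 52.7 % over all windows, and its part in the count was not tested. No match was found in Hk1, Gpi1, Aldoa, Tpi1, Eno2, Pkm, Dlat and Mxi1. Ndrg1 had no entry. The window of Aldoa had its start 8661 bases from the outer start of its deposited gene model. For Gapdh, Slc16a3 and Higd1a this distance was 694, 587 and 566 bases. These windows do not reach the outer start, so they say nothing of it. Among members called in the knockout endothelial cells with pairing, Aldoa and Tpi1 were without a match and Pfkl had 1.

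The first comparison asked how these genes differ in endothelial cells that lack Plxnd1. Several enzymes and the lactate exporter were higher in knockout endothelial cells in both pairs of batches. When libraries of the same batch number were paired, 8 of 34 members rose and none fell: Pfkl, Aldoa, Tpi1, Gapdh and Eno1 of the chain, Ldha and Slc16a3 of lactate handling, and P4ha2 of the hypoxia targets. The edgeR quasi-likelihood test without pairing called none of them (adjusted p from 0.842 to 0.999). It placed 12 of 34 members at an unadjusted p under 0.05, and 431 of all 18209 genes. DESeq2 without pairing called 5 members (Aldoa, Ldha, Pfkl, Slc16a3 and Tpi1). Of the 18209 genes tested, the paired test called 0.763 % higher and 0.225 % lower, the unpaired edgeR test called 0 % either way, and DESeq2 called 0.154 % higher and 0.033 % lower. Fitted jointly with the motor neurons, no member passed, paired or not. With DESeq2 paired by batch 5 were called as well, with Eno1 in place of Tpi1. There 0.231 % of genes were called higher and 0.0714 % lower. The paired fit had 1 residual degree of freedom among samples, since batch 2 has no wild-type partner, and its error leans on the spread shared by all genes.

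Slc16a3, which exports lactate across the cell membrane, was at 13.9 and 11.6 CPM in wild-type against 33.2, 29.5 and 25.8 CPM in knockout endothelial cells. The knockout libraries lay above both wild-type libraries without overlap, and the paired log2 fold change was 1.20 ± 0.13 (SE; edgeR adjusted p = 5.25e-06), the largest of the members called. Ldha, the lactate dehydrogenase subunit that favours lactate, was at 170.1 and 155 CPM in wild type against 263, 285 and 235 CPM in the knockout, again with no overlap (0.62 ± 0.090, adjusted p = 3.48e-04). Both genes serve the making and export of lactate. Ldhb, the other main subunit of the dehydrogenase, was at 70.1 and 97.6 CPM and 74.7, 87.0 and 102 CPM, with overlapping groups. Pdk1, a kinase that inactivates pyruvate dehydrogenase, was at 47.7 and 38.7 CPM and 57.3, 52.3 and 55.3 CPM, with groups apart but short of the paired threshold (adjusted p = 0.0824). The pyruvate dehydrogenase subunit gene Pdha1 was at 94.2 and 97.1 CPM and 95.2, 109 and 104 CPM, and Dlat, a further subunit, at 53.4 and 59.7 CPM and 55.7, 63.1 and 52.4 CPM, both with overlapping groups.

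In the chain, the preparatory steps came first. Hk1, the hexokinase of most tissues, was at 71.8 and 80.6 CPM in wild-type against 78.3, 74.3 and 87.6 CPM in knockout endothelial cells, and the inducible hexokinase Hk2 at 21.2 and 18.6 CPM and 24.7, 25.7 and 24.9 CPM. The groups lay apart in Hk2 and overlapped in Hk1, and neither passed. Gpi1, the isomerase of glucose phosphate, was at 151 and 147 CPM and 166, 158 and 157 CPM, a narrow gap. Of the phosphofructokinases, which catalyse the committed step, the liver form Pfkl was at 82.6 and 97.0 CPM and 121, 126 and 133 CPM and rose by a paired log2 fold change of 0.50 ± 0.092 (SE; edgeR adjusted p = 0.00378). The muscle form Pfkm was at 74.1 and 79.7 CPM and 77.3, 81.3 and 84.4 CPM, and the platelet form Pfkp at 27.8 and 23.8 CPM and 27.0, 17.8 and 26.7 CPM. Their groups overlapped, unlike those of Pfkl. Aldoa, the main aldolase, was at 192 and 170.1 CPM and 263, 246 and 260.1 CPM and rose (0.53 ± 0.092, adjusted p = 0.002). The brain aldolase Aldoc was at 8.46 and 29.5 CPM and 9.66, 11.2 and 31.1 CPM: the batch 3 library was high in both genotypes. Tpi1, triose phosphate isomerase, was at 135 and 123 CPM and 176, 181 and 180.2 CPM and rose (0.47 ± 0.092, adjusted p = 0.00833).

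The later steps yield the cell's gain in energy. Gapdh was at 29.2 and 21.2 CPM in wild type against 40.4, 51.6 and 35.1 CPM in knockout endothelial cells, a paired log2 fold change of 0.60 ± 0.12 (SE; edgeR adjusted p = 0.00643). This rise rests on reads that map to Gapdh alone. In the knockout series 180 copies of the gene, at 90 % identity or more, held 58.2 % of the reads of the family. Whether reads on the copies came from Gapdh RNA was not tested. With the counts of the copies added the levels were 80.6 and 78.4 CPM and 86.8, 87.0 and 90.4 CPM. The paired log2 fold change was then 0.16 ± 0.093 (edgeR adjusted p = 0.706). Gapdh was therefore not called once its copies were counted. Pgk1, phosphoglycerate kinase, was at 7.75 and 8.43 CPM and 8.31, 10.5 and 11.7 CPM. Pgam1, phosphoglycerate mutase, was at 6.01 and 7.31 CPM and 7.52, 8.86 and 6.67 CPM. Both genes have copies at 100 % identity, so in every group they can lose reads with several alignments. Counts of the copies do not restore such reads, and the size of the loss was not tested. Eno1, the enolase of most cells, was at 43.2 and 60.2 CPM and 81.2, 72.1 and 82.4 CPM and rose (0.68 ± 0.11, adjusted p = 7.06e-04). With its 7 copies added, the paired value was 0.65 ± 0.10 (edgeR adjusted p = 7.99e-04). The protein-coding Eno1b, at 99.5 % identity to Eno1, was not among the counts added. The neuronal enolase Eno2 went the other way, at 19.6 and 22.2 CPM in wild type against 15.03, 14.6 and 18.6 CPM in the knockout, with groups apart but no call (paired adjusted p = 0.474). Pkm, pyruvate kinase, was at 311 and 340.3 CPM and 399, 402 and 435 CPM, apart and not called (0.36 ± 0.10, adjusted p = 0.132). The 2 enzymes that make and break the activator of phosphofructokinase were not called: Pfkfb3 was at 39.6 and 41.4 CPM and 49.8, 39.0 and 40.9 CPM, and Pfkfb4 at 17.6 and 18.8 CPM and 16.9, 17.0 and 16.3 CPM.

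Of the 11 hypoxia targets outside glycolysis, 1 rose in knockout endothelial cells with pairing. P4ha2, a subunit of the hydroxylase that matures collagen, was at 7.93 and 10.4 CPM in wild type against 15.1, 19.8 and 15.4 CPM in the knockout, a paired log2 fold change of 0.75 ± 0.16 (SE; edgeR adjusted p = 0.0135). Its partner gene P4ha1 was at 86.1 and 81.2 CPM and 102, 122 and 109.6 CPM, apart but not called (adjusted p = 0.0937). Adm, the vasodilator peptide adrenomedullin, was at 3.81 and 2.41 CPM and 6.60, 4.25 and 4.78 CPM and also missed the threshold (0.88 ± 0.23, adjusted p = 0.0687). The oxygen-sensing hydroxylases did not pass either: Egln1 was at 92.9 and 90.5 CPM and 99.6, 98.9 and 90.8 CPM. Egln3 was at 9.67 and 14.5 CPM and 14.8, 14.2 and 18.5 CPM, with overlap through the batch 3 wild-type library. Bnip3, a receptor for the removal of mitochondria, was at 3.63 and 4.29 CPM and 5.73, 7.31 and 3.83 CPM, and the pairs differed in direction. Ankrd37, a gene induced by low oxygen, was at 2.70 and 1.91 CPM and 3.18, 2.16 and 2.65 CPM. Ndrg1, a stress-induced gene, was at 25.3 and 24.5 CPM and 29.7, 30.6 and 27.9 CPM, with groups apart. Higd1a, a mitochondrial protein gene, was at 15.3 and 13.0 CPM and 16.1, 16.2 and 14.5 CPM, with overlap. Ddit4, an inhibitor of mTOR signalling, was at 35.2 and 45.3 CPM and 46.0, 41.6 and 55.2 CPM, also with overlap. Mxi1, an antagonist of Myc, was at 56.5 and 58.1 CPM and 58.6, 60.1 and 59.9 CPM, a small gap between groups.

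Across the 34 members the median unpaired log2 fold change was 0.24, against -0.0075 over all 18209 genes, and 30 members were above 0. The 23 enzymes and transporters had a median of 0.21 and the 11 hypoxia targets one of 0.25. All libraries of the knockout lay above all of wild type in 16 members, and below in Eno2 and Pfkfb4, where 5.88 % and 7.96 % of all genes were so placed. In both batch pairs 27 members were higher in the knockout, a direction that 25 % of all genes showed, and Eno2 and Pfkfb4 were lower in both, as were 28.8 % of all genes.

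**Figure D1:**
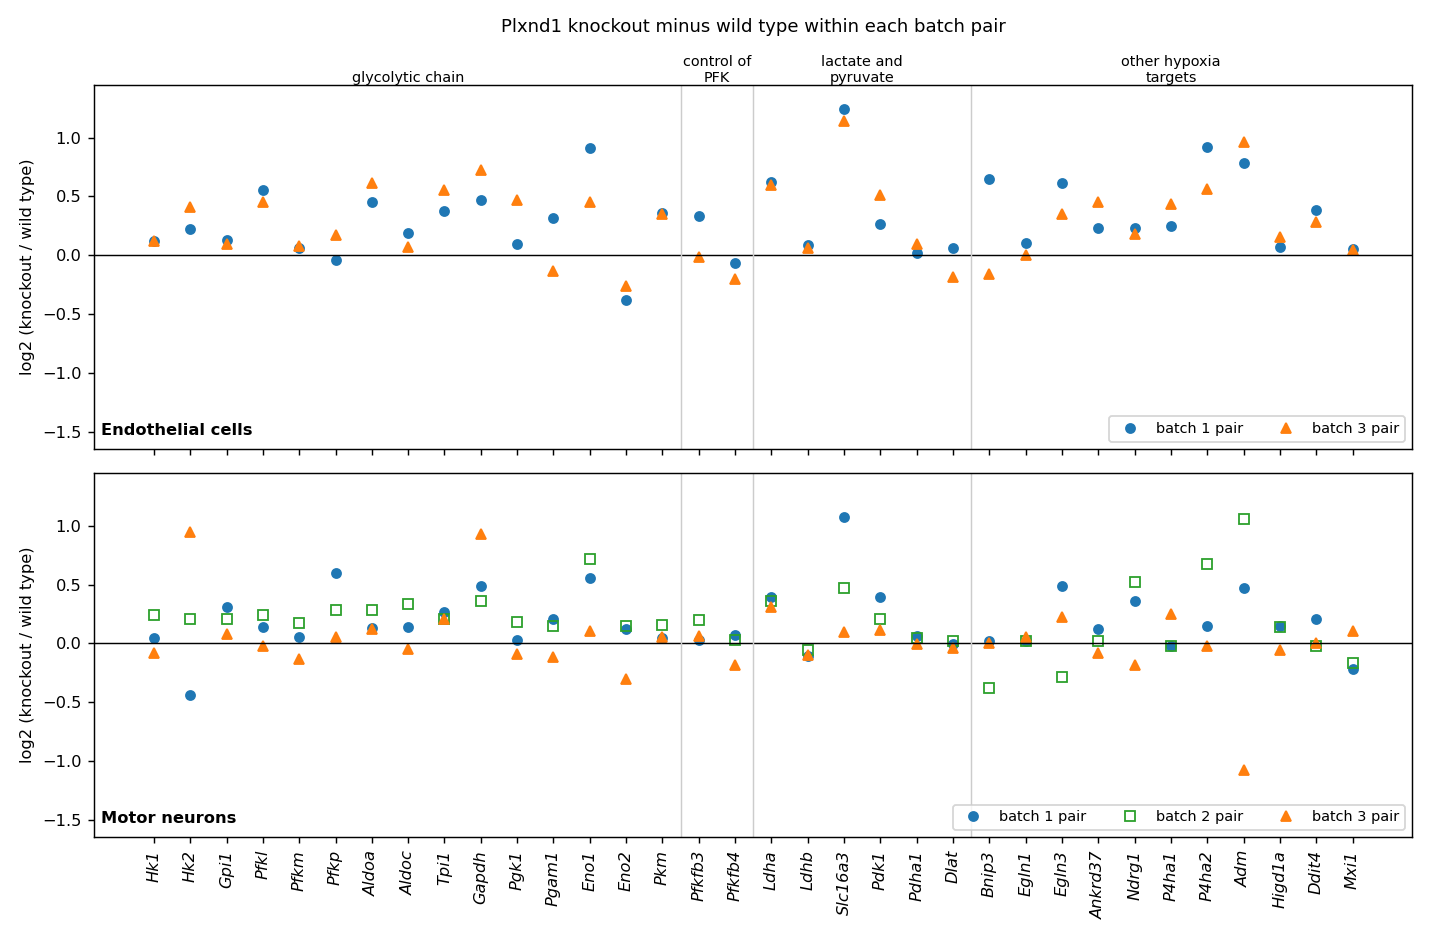
Log2 ratio of knockout to wild type within each batch pair for the 34 members, ordered by role, in endothelial cells (upper panel, batches 1 and 3) and motor neurons (lower panel, batches 1 to 3); each point is 1 pair. In endothelial cells 27 members lie above 0 in both pairs, with Slc16a3 highest, and in motor neurons 12 lie above 0 in all 3 pairs.

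Of the RNA sums that follow, only that of muscle and cartilage lay apart between genotypes in endothelial cells of the knockout series. The 10 markers of muscle and cartilage summed to 269 and 430 CPM in wild-type and to 459, 633 and 654 CPM in knockout endothelial cells, with 4 of the 6 tested higher in the paired test, while Myod1, Myog, Myf5, Mymk and Matn1 were under 1 CPM throughout. The 15 endothelial markers summed to 1566 and 1012 CPM in wild type and to 1293, 687 and 1002 CPM in the knockout, with 2 lower in the paired test. Mitochondrial transcripts summed to 7546 and 8364 CPM in wild type against 7730, 10473 and 10514 CPM in the knockout. The part of these RNAs in the members' changes was not tested. Tpi1 and Gapdh lie on chromosome 6, 8.82 and 9.17 Mb from Plxnd1, as do Eno2 at 8.77 Mb and, further away, Ldhb and Hk2 at 26.5 and 33.2 Mb, so for them an effect of linked alleles and one of the knockout cannot be told apart.

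In motor neurons edgeR called no member over all 6 libraries, paired or not, although 12 members, Eno1, Ldha and Tpi1 among them, were higher in the knockout in all 3 pairs, as were 13.6 % of all genes. The unpaired edgeR test gave each member an adjusted p of 0.9997. It placed 2 members, Eno1 and Gapdh, at an unadjusted p under 0.05, and 190 of all 16695 genes. DESeq2 without pairing called none. Of 16695 genes, unpaired edgeR called 0 % higher and 0.012 % lower, and paired edgeR 0.012 % higher and 0.024 % lower. The groups lay apart in 2 members, both higher, where 2.38 % of all genes were apart in that direction and 2.48 % in the other.

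Eno1 was at 42.2, 38.8 and 44.6 CPM in wild-type against 62.2, 63.8 and 48.1 CPM in knockout motor neurons, without overlap (0.47 ± 0.12, SE). Gapdh was at 21.5, 27.3 and 17.6 CPM and 30.3, 34.99 and 33.7 CPM, also without overlap, but with its copies added at 63.0, 76.0 and 69.6 CPM and 66.5, 63.8 and 62.6 CPM, where the direction turned (log2 fold change 0.57 ± 0.16 without and -0.11 ± 0.087 with the copies, neither called). Ldha was at 83.2, 105 and 65.1 CPM and 109.7, 134 and 80.9 CPM, higher within each of the 3 pairs though the groups overlapped, and the paired value was 0.36 ± 0.058 (edgeR adjusted p = 0.132). Slc16a3 was at 5.65, 11.9 and 5.57 CPM and 12.01, 16.5 and 5.98 CPM, with batch 2 high in both genotypes. Paired DESeq2 called Gapdh and Ldha higher, where it called 0.0958 % of all genes higher and 0.114 % lower. Paired edgeR without wild-type batch 3 called 5 members higher (Eno1, Gpi1, Ldha, Pfkp and Slc16a3), without knockout batch 3 it called 3 (Eno1, Ldha and Pfkp), and without batch 1 of either genotype it called 2 (Eno1 and Gapdh). The share of all genes called higher rose as well: it was 0.852 % when the wild-type library of batch 3 was left out and 0.679 % for the knockout library of that batch, against 0.316 % and 0.341 % for the 2 libraries of batch 1.

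The remaining enzymes overlapped between genotypes in motor neurons. Hk1 was at 181, 211 and 182 CPM in wild type against 187, 249.5 and 172 CPM in the knockout, and Hk2 stayed low at 2.95, 1.49 and 1.72 CPM and 2.16, 1.74 and 3.39 CPM. Gpi1 was at 126, 158 and 107 CPM and 156, 183 and 113 CPM, highest in batch 2 in both genotypes. Pfkl was at 109.8, 112 and 127 CPM and 121, 132 and 126 CPM, with overlap, unlike in endothelial cells. Pfkm was at 136, 135 and 138 CPM and 141, 152 and 125 CPM. Pfkp was at 165, 192 and 116 CPM and 251, 234 and 119.9 CPM, lowest in batch 3 of both genotypes. Aldoa was at 162, 175 and 146 CPM and 177, 212 and 159 CPM, and Aldoc at 9.50, 8.89 and 8.17 CPM and 10.5, 11.2 and 7.90 CPM. Tpi1 was at 96.0, 117 and 77.2 CPM and 115, 135 and 88.9 CPM, higher in each pair yet overlapping between groups. Pgk1 was at 9.63, 8.70 and 10.6 CPM and 9.85, 9.89 and 9.91 CPM. Pgam1 was at 6.06, 7.02 and 7.33 CPM and 7.02, 7.79 and 6.75 CPM. Eno2 was at 103, 103 and 99.5 CPM and 112, 114 and 80.8 CPM, with the lowest value in knockout batch 3. Pkm was at 552, 577 and 579 CPM and 571, 643 and 602 CPM, all within a narrow range.

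The enzymes of phosphofructokinase control and of pyruvate also overlapped. Pfkfb3 was at 100.5, 99.3 and 111 CPM in wild-type against 103, 114 and 117 CPM in knockout motor neurons, and Pfkfb4 at 41.3, 42.7 and 43.8 CPM and 43.4, 43.7 and 38.5 CPM. Ldhb was at 152, 149 and 178 CPM and 141, 143 and 167 CPM, lower in each of the 3 pairs, as were 11.5 % of all genes. Pdk1 was at 13.6, 16.1 and 12.6 CPM and 18.0, 18.6 and 13.6 CPM, Pdha1 at 91.5, 103 and 89.9 CPM and 95.7, 107 and 89.7 CPM, and Dlat at 66.5, 74.5 and 69.4 CPM and 66.2, 75.8 and 67.7 CPM. Of these, Pdk1 was higher in each pair and Ldhb was the sole member lower in each. Of the hypoxia targets, P4ha2 was at 9.79, 7.16 and 7.08 CPM and 10.8, 11.5 and 6.98 CPM and Ndrg1 at 8.89, 9.80 and 8.17 CPM and 11.4, 14.1 and 7.17 CPM, the smallest p-values of their role (unadjusted p = 0.249 and 0.267, edgeR across all genes). Bnip3 was at 7.99, 10.9 and 8.17 CPM and 8.11, 8.35 and 8.21 CPM, Egln1 at 102, 116 and 111 CPM and 103, 117 and 115 CPM, and Egln3 at 4.96, 5.67 and 3.06 CPM and 6.98, 4.64 and 3.59 CPM. Of the 11 targets, Egln1 alone moved the same way in all 3 pairs, and by little. Ankrd37 was at 4.26, 3.51 and 4.78 CPM and 4.66, 3.55 and 4.51 CPM, and P4ha1 at 30.7, 29.9 and 26.3 CPM and 30.2, 29.5 and 31.3 CPM. Adm was near the lower end of detection, at 0.696, 0.288 and 0.251 CPM and 0.998, 0.686 and 0.0771 CPM. Higd1a was at 20.4, 22.01 and 17.4 CPM and 22.7, 24.3 and 16.7 CPM, Ddit4 at 71.5, 80.5 and 69.7 CPM and 82.7, 79.6 and 69.7 CPM, and Mxi1 at 92.5, 97.1 and 99.4 CPM and 79.6, 86.4 and 107 CPM, with overlap in each.

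The members' median log2 fold change in motor neurons was 0.094, against 0.0041 over all 16695 genes. Knockout batch 1 held liver RNA: 7 liver markers summed to 671 CPM there and to at most 2.16 CPM in the other motor neuron libraries. The 11 motor neuron markers summed to 1187, 1860 and 765 CPM in wild-type and to 1694, 2198 and 766 CPM in knockout motor neurons. The sum was higher in the knockout within each pair, in batch 3 by little, and lowest in batch 3 of both genotypes. The part of liver RNA and of motor neuron content in the members' values was not tested.

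**Figure D2:**
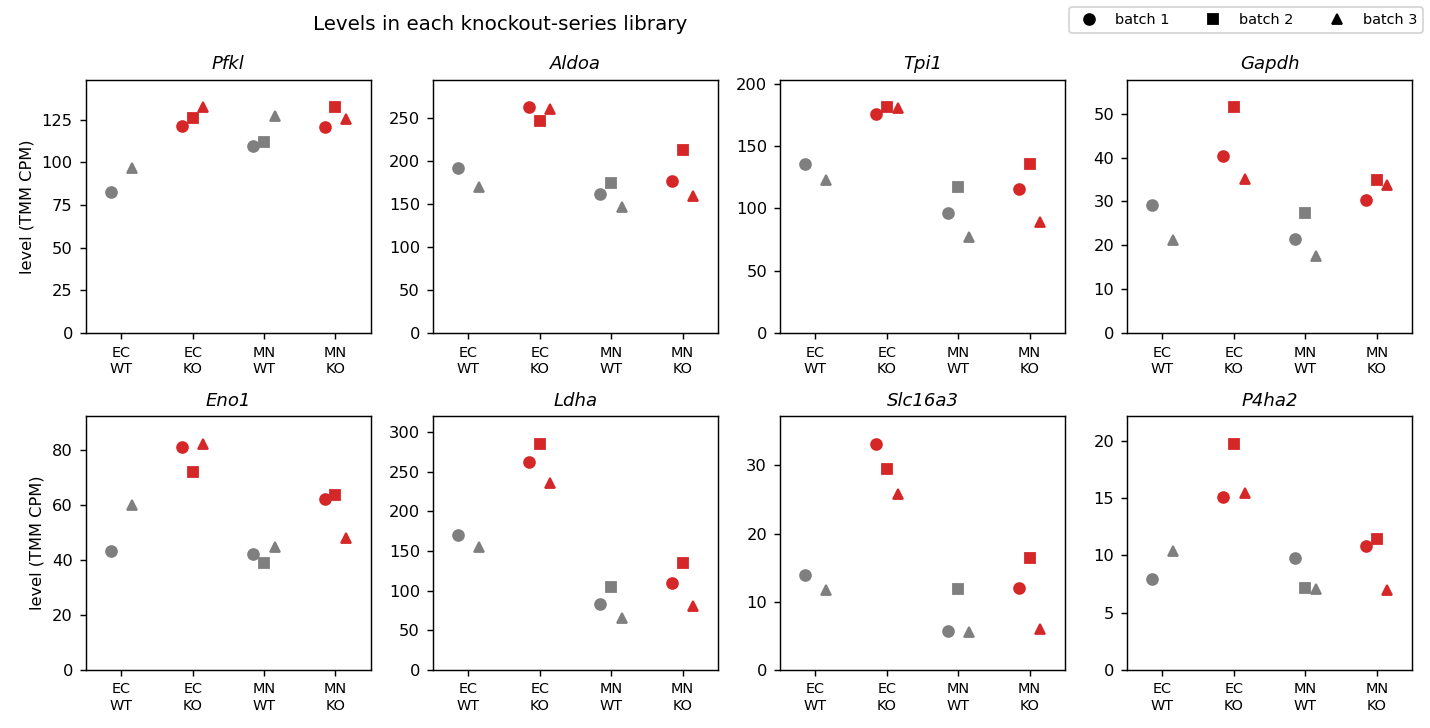
Level in TMM-scaled CPM of the 8 members called in the paired endothelial test, in each library of the knockout series; gray marks wild type (WT), red the knockout (KO), and the marker shape the batch, with endothelial cells (EC) left and motor neurons (MN) right in each panel. In endothelial cells the knockout points lie above the wild-type points in all 8 panels; in motor neurons this holds for Gapdh and Eno1.

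Whether the knockout acts differently in the 2 cell types was tested directly. For the 34 members the edgeR interaction test called none, paired or not, with 2 members at an unadjusted p under 0.05, and DESeq2 called none. Among 19266 genes edgeR called 0 %, and without pairing 352 were at an unadjusted p under 0.05. The smallest p was that of Pfkl, where the endothelial log2 fold change exceeded that in motor neurons by 0.38 ± 0.13 (SE; edgeR adjusted p = 0.99997). For Slc16a3 the difference was 0.63 ± 0.55, for Ldha 0.32 ± 0.30 and for P4ha1 0.35 ± 0.13. A difference between cell types in the effect on these genes was therefore not detected, which does not show that the effects were alike.

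The next comparison set wild-type endothelial cells against wild-type motor neurons. Endothelial cells had more Hk2 and Ldha, and motor neurons more Hk1, Eno2, Ldhb and all 3 phosphofructokinases. Of 34 members 7 were higher in endothelial cells and 16 in motor neurons in the unpaired edgeR test, where 33.8 % and 31 % of 19266 genes were called in those directions. Most genes thus differed between these cells, and the members were called at 9 and 16 with pairing, where 34.7 % and 32.2 % of genes were.

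In the chain, endothelial cells had more Hk2 (log2 fold change 3.27 ± 0.30, SE, edgeR adjusted p = 5.48e-06), which was under 3 CPM in each wild-type motor neuron library. Motor neurons had more Hk1 (-1.33 ± 0.16 for endothelial over motor neuron), more of each phosphofructokinase, with Pfkp at -2.61 ± 0.35, Pfkm at -0.82 ± 0.093 and Pfkl at -0.37 ± 0.099, more Eno2 (-2.28 ± 0.17) and more Pkm (-0.81 ± 0.099). Their adjusted p-values ran from 1.25e-06 for Eno2 to 0.00693 for Pfkl. The steps between, Gpi1, Aldoa, Gapdh, Pgk1 and Pgam1, had log2 fold changes from -0.25 to 0.20 and were not called, and Aldoc and Eno1 were not called either (1.10 ± 0.54 and 0.30 ± 0.16). Tpi1 was called higher in endothelial cells in the paired fit (0.53 ± 0.13, adjusted p = 0.00602) and not in the unpaired fit (0.42 ± 0.18, adjusted p = 0.0686). Both enzymes that control phosphofructokinase were higher in motor neurons, Pfkfb3 at -1.36 ± 0.12 and Pfkfb4 at -1.23 ± 0.097.

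At the lactate branch endothelial cells had more Ldha (0.95 ± 0.22, SE, edgeR adjusted p = 0.00292) and Pdk1 (1.62 ± 0.16, adjusted p = 7.92e-06), and motor neurons more Ldhb (-0.93 ± 0.17, adjusted p = 6.68e-04), the subunit that favours pyruvate. Dlat was slightly higher in motor neurons (-0.31 ± 0.11) and Pdha1 did not differ by more than its error (0.011 ± 0.10). Slc16a3 was higher in endothelial cells in the paired fit (1.02 ± 0.29, adjusted p = 0.0132), while the unpaired value was 0.74 ± 0.40 (adjusted p = 0.134), with the batch 2 motor neuron library inside the endothelial range.

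The hypoxia targets split as well. Adm (2.89 ± 0.67, SE), P4ha1 (1.53 ± 0.099), Ndrg1 (1.48 ± 0.22) and Egln3 (1.41 ± 0.32) were higher in endothelial cells. Bnip3 (-1.19 ± 0.26), Ddit4 (-0.88 ± 0.15), Ankrd37 (-0.86 ± 0.26), Mxi1 (-0.75 ± 0.11), Higd1a (-0.50 ± 0.18) and Egln1 (-0.26 ± 0.089) were higher in motor neurons. P4ha2 was not called (0.19 ± 0.25). The sign of a hypoxia target thus did not follow from its membership in that group: 4 were higher, 6 lower and 1 not called. Mesenchymal markers summed to at least 16267 CPM in the wild-type endothelial libraries and to at most 856 CPM in the motor neurons, and their part in these values was not tested.

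**Figure D3:**
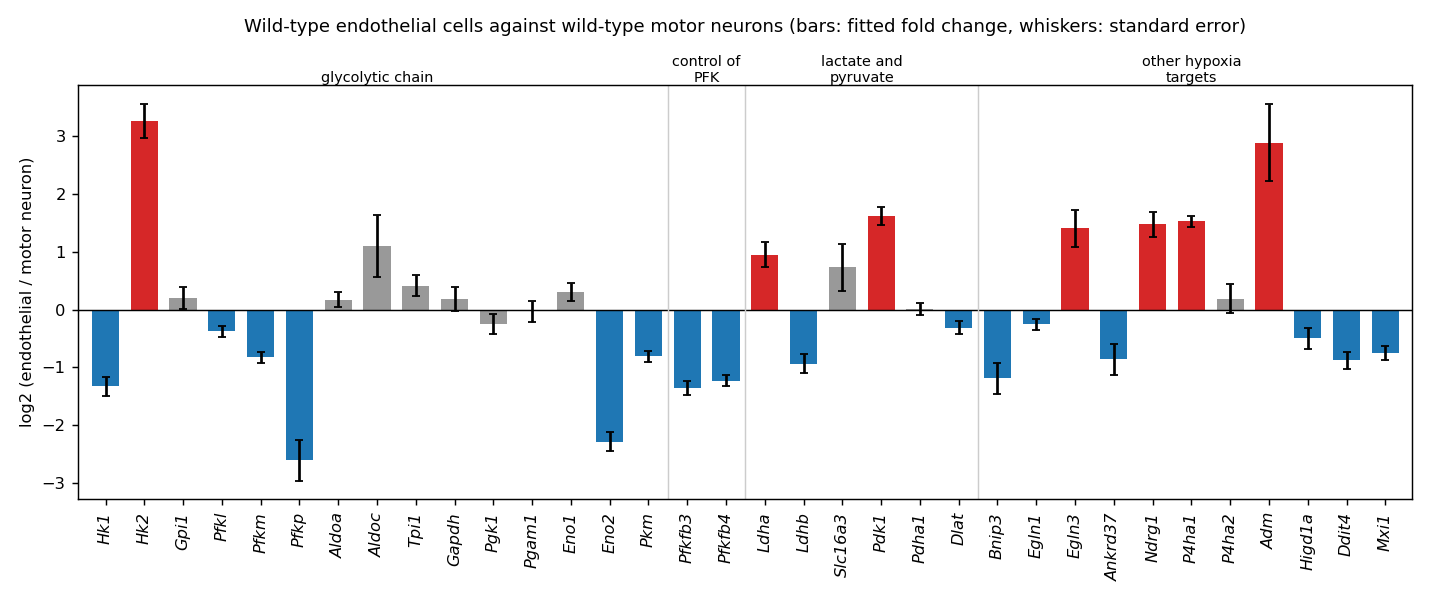
Fitted log2 fold change of wild-type endothelial cells over wild-type motor neurons for the 34 members by role, with standard errors as whiskers; red bars were called higher in endothelial cells, blue bars higher in motor neurons, and gray bars were not called (unpaired edgeR, adjusted p of 0.05). Hk2 and Adm stand highest at 3.27 and 2.89, and Pfkp and Eno2 lowest at -2.61 and -2.28.

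The regional comparison asked how wild-type endothelial cells of the cord parenchyma differ from those of the meninges. Of 34 members 15 were higher and 4 lower in spinal endothelial cells, where edgeR called 24.8 % and 23 % of 16213 genes. With pairing it called 15 and 4 as well, with Ddit4 in place of Pkm, where 23.9 % and 21.3 % of genes were called. By size, Aldoc, Adm, Ankrd37, Pfkfb3 and Egln3 led the higher members and Ndrg1 the lower ones.

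Aldoc was at 61.1, 25.9, 37.8, 31.5 and 29.5 CPM in spinal and 1.07, 0.964, 1.75, 1.37 and 0.801 CPM in meningeal endothelial cells, a log2 fold change of 4.95 ± 0.29 (SE; edgeR adjusted p = 1.48e-07). All spinal libraries lay above all meningeal ones. Aldoc is a known marker of astroglia and their precursors, and 7 of 9 neural progenitor markers were called higher in spinal cells as well, among them Sox2 at 57.9 to 157 CPM in spinal and 2.64 to 4.77 CPM in meningeal libraries. The summed level of the 9 was 2440 to 3151 CPM and 1800 to 2218 CPM, and its part in Aldoc was not tested. Hk2 was at 30.9, 31.0, 38.1, 49.6 and 48.5 CPM and 15.5, 22.8, 19.2, 21.0 and 17.9 CPM (1.04 ± 0.17), and Hk1 at 92.6, 118, 93.4, 131 and 115 CPM and 80.1, 86.1, 91.7, 81.2 and 81.3 CPM (0.39 ± 0.11). Both hexokinases were thus higher in each spinal library. Pfkp was at 39.5, 38.9, 44.1, 49.0 and 55.1 CPM and 19.8, 27.3, 25.2, 27.4 and 23.2 CPM (0.88 ± 0.13), without overlap. Pfkl was at 94.2, 91.9, 96.4, 149 and 145 CPM and 87.9, 76.3, 99.2, 93.8 and 85.0 CPM and not called, with batches 4 and 5 high in the cord. Pfkm was at 53.3, 42.9, 58.3, 54.9 and 51.0 CPM and 59.3, 54.1, 71.4, 59.0 and 62.4 CPM, lower in all 5 pairs but not called (adjusted p = 0.0848). Tpi1 was lower, at 149, 192, 161, 249.9 and 249 CPM in spinal and 335, 351, 323, 264 and 274 CPM in meningeal cells (-0.63 ± 0.16, adjusted p = 0.0066).

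Eno1 was at 138, 148, 146, 177 and 176 CPM in spinal and 141, 78.3, 131, 99.0 and 88.2 CPM in meningeal endothelial cells (0.55 ± 0.16, SE; edgeR adjusted p = 0.0144), with overlap through meningeal batch 1. Eno2 was at 11.1, 14.6, 18.9, 18.4 and 16.7 CPM and 8.31, 7.59, 10.8, 7.04 and 9.02 CPM (0.90 ± 0.17) and did not overlap. Pkm was at 579, 625, 647, 940.2 and 923 CPM and 588, 578, 597, 529 and 515 CPM (0.40 ± 0.16), called without pairing (adjusted p = 0.0488) and not with it (adjusted p = 0.118). The last step of the chain thus sat at the threshold. With 26.5 % of its family's reads on copies, Gapdh is again uncertain. Not called were Gpi1 at 227, 248, 231, 342 and 340.5 CPM and 289, 328, 333, 287 and 268 CPM, Aldoa at 286, 432, 306, 504 and 490.3 CPM and 342, 322, 365, 296 and 288 CPM, and Gapdh at 225, 269, 262, 398 and 373 CPM and 322, 272, 369, 313 and 287 CPM. Their spinal values fell into lower ones in batches 1 to 3 and higher ones in batches 4 and 5, apart from Aldoa batch 2. Pgk1 was at 55.9, 59.6, 64.8, 74.3 and 81.5 CPM and 68.0, 59.0, 57.2, 64.7 and 56.6 CPM, and Pgam1 at 27.5, 39.1, 31.9, 45.4 and 44.2 CPM and 40.8, 26.0, 36.7, 39.4 and 40.2 CPM, both not called. Pfkfb3 was at 67.3, 60.5, 60.1, 88.3 and 85.3 CPM and 22.4, 21.99, 23.1, 26.1 and 24.9 CPM (1.61 ± 0.13, adjusted p = 1.07e-06), while Pfkfb4, its relative, was at 14.9, 11.4, 14.5, 14.97 and 15.5 CPM and 13.0, 11.6, 16.02, 12.8 and 11.5 CPM and not called.

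At the lactate branch Slc16a3 was at 24.4, 37.3, 23.0, 42.6 and 40.8 CPM in spinal and 17.4, 15.2, 16.2, 13.9 and 13.7 CPM in meningeal endothelial cells (1.14 ± 0.18, SE; edgeR adjusted p = 2.48e-04). Ldhb was at 136, 121, 182, 139 and 121 CPM and 102, 92.1, 95.6, 82.6 and 88.4 CPM (0.60 ± 0.12). Both were higher in each spinal library. Pdk1 was lower, at 20.1, 19.5, 24.9, 27.5 and 27.4 CPM and 34.3, 38.4, 41.5, 40.0 and 39.8 CPM (-0.70 ± 0.12, adjusted p = 4.60e-04), again without overlap. Ldha was at 234, 312, 242, 413 and 426 CPM and 365, 286, 315, 292 and 285 CPM, Pdha1 at 116, 153, 119.7, 130.4 and 134 CPM and 142, 123, 113, 140.3 and 129 CPM, and Dlat at 46.1, 53.9, 43.9, 47.0 and 51.3 CPM and 43.4, 36.7, 40.8, 49.2 and 50.7 CPM. These 3 were not called.

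Among hypoxia targets Adm was at 15.8, 17.9, 10.1, 22.8 and 22.8 CPM in spinal and 2.63, 1.61, 2.51, 2.98 and 3.04 CPM in meningeal endothelial cells (2.79 ± 0.25, SE; edgeR adjusted p = 2.36e-06), and Ankrd37 at 8.49, 10.2, 4.90, 15.6 and 14.7 CPM and 2.52, 1.86, 2.69, 2.84 and 2.03 CPM (2.17 ± 0.30). Egln3 was at 18.8, 13.8, 23.2, 13.8 and 14.4 CPM and 5.90, 4.05, 7.48, 5.96 and 6.67 CPM (1.48 ± 0.20). These 3 had no overlap between regions. Egln1 was at 83.0, 85.9, 79.3, 89.8 and 89.8 CPM and 58.7, 57.6, 58.9, 81.7 and 81.8 CPM (0.34 ± 0.12, adjusted p = 0.0366), with meningeal batches 4 and 5 inside the spinal range. Mxi1 was at 57.4, 71.9, 59.8, 73.0 and 75.7 CPM and 49.6, 37.6, 44.1, 46.7 and 46.5 CPM (0.59 ± 0.11). Ddit4 was at 43.0, 27.6, 40.1, 41.9 and 39.4 CPM and 31.2, 20.3, 35.1, 28.5 and 30.1 CPM, higher in all 5 pairs, and called with pairing (adjusted p = 0.011) but not without it (adjusted p = 0.053). In the other direction, Ndrg1 was at 5.86, 5.25, 4.77, 8.56 and 6.89 CPM in spinal and 25.4, 24.8, 32.8, 27.4 and 27.9 CPM in meningeal cells (-2.14 ± 0.17, adjusted p = 8.71e-07), and P4ha2 at 4.16, 2.68, 4.005, 3.14 and 3.01 CPM and 8.15, 7.39, 7.01, 7.18 and 7.21 CPM (-1.12 ± 0.17, adjusted p = 1.37e-04). No library broke this order in either gene. Bnip3 was at 10.3, 15.9, 13.4, 18.7 and 21.9 CPM and 20.8, 10.2, 13.7, 12.4 and 14.6 CPM, P4ha1 at 75.2, 87.6, 66.9, 88.1 and 87.0 CPM and 80.7, 88.7, 72.4, 90.7 and 82.9 CPM, and Higd1a at 21.5, 24.7, 20.2, 27.1 and 25.5 CPM and 26.3, 21.7, 18.2, 20.8 and 18.4 CPM, none of them called.

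The 34 members had a median log2 fold change of 0.33 against 0.011 over all genes. Groups did not overlap in 12 members that were higher and 4 that were lower, against 19.2 % and 17.4 % of all genes. The regions also differ in which cells' RNA they hold: meningeal and mesenchymal markers summed to 1609 to 2909 CPM in spinal and 15743 to 22060 CPM in meningeal libraries, neuron markers to 1252 to 2831 CPM and 231 to 631 CPM, and endothelial markers to 2271 to 5009 CPM and 1151 to 2365 CPM. Their part in the members' differences was not tested.

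The count for the chain differed with the batches used. In batches 4 and 5, with whole cord, 12 of 15 chain enzymes were higher in spinal cells and none lower, with a median log2 fold change of 0.70, where 27.3 % of all genes were called higher and 26.6 % lower. In batches 1 to 3, with ventral cord, 4 were higher and 2 lower with a median of 0.040, where 21 % of all genes were called higher and 22.1 % lower. Aldoa was at -0.042 ± 0.17 (SE) in batches 1 to 3 and 0.75 ± 0.072 in batches 4 and 5, Pkm at 0.040 ± 0.14 and 0.82 ± 0.072, and Ldha at -0.33 ± 0.16 and 0.53 ± 0.072. Gpi1 was called in opposite directions, at -0.46 ± 0.13 (edgeR adjusted p = 0.0192) and 0.28 ± 0.073 (adjusted p = 0.00622). Tpi1 was at -1.04 ± 0.14 (adjusted p = 7.40e-04) in batches 1 to 3 and was not called in batches 4 and 5 (-0.12 ± 0.070), and Gapdh was at -0.38 ± 0.16 and 0.35 ± 0.078.

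The difference between the batches was itself tested, a fit chosen after the data had been seen. No member passed in edgeR, where 0.14 % of 17901 genes were called higher and 0.408 % lower. The smallest adjusted p-values were 0.0572 for Tpi1 (-0.87 ± 0.18, SE), 0.0629 for Gpi1 (-0.70 ± 0.16) and 0.0631 for Pkm (-0.73 ± 0.17), and 14 of 15 chain enzymes were more toward meningeal in the ventral batches. Of the hypoxia targets, 5 were higher and 2 lower in batches 1 to 3 and 7 and 2 in batches 4 and 5, with Adm at 2.65 ± 0.30 and 2.90 ± 0.15 and Ndrg1 at -2.42 ± 0.19 and -1.86 ± 0.13. Part of the cord and batch cannot be told apart. Macrophage markers summed to 1001, 1497 and 1238 CPM in the ventral and 3036 and 2996 CPM in the whole-cord libraries. In meningeal libraries they summed to 1790, 1733 and 1368 CPM in batches 1 to 3 and 2537 and 1909 CPM in batches 4 and 5. Erythroid markers summed to 4544, 33482 and 14252 CPM in the ventral and 44735 and 46931 CPM in the whole-cord libraries. Their meningeal sums were 55078, 7838 and 21311 CPM in batches 1 to 3 and 7306 and 10831 CPM in batches 4 and 5. Endothelial markers summed to 4335, 3388 and 2271 CPM in the ventral and 5009 and 4766 CPM in the whole-cord libraries. In meningeal libraries the sums were 1151, 1173 and 1471 CPM and 2365 and 1651 CPM. Meningeal and mesenchymal markers summed to 2909, 2589 and 2204 CPM in the ventral and 1741 and 1609 CPM in the whole-cord libraries. Their meningeal sums were 16351, 15743 and 15872 CPM and 21431 and 22060 CPM. The part of these marker lists was not tested.

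**Figure D4:**
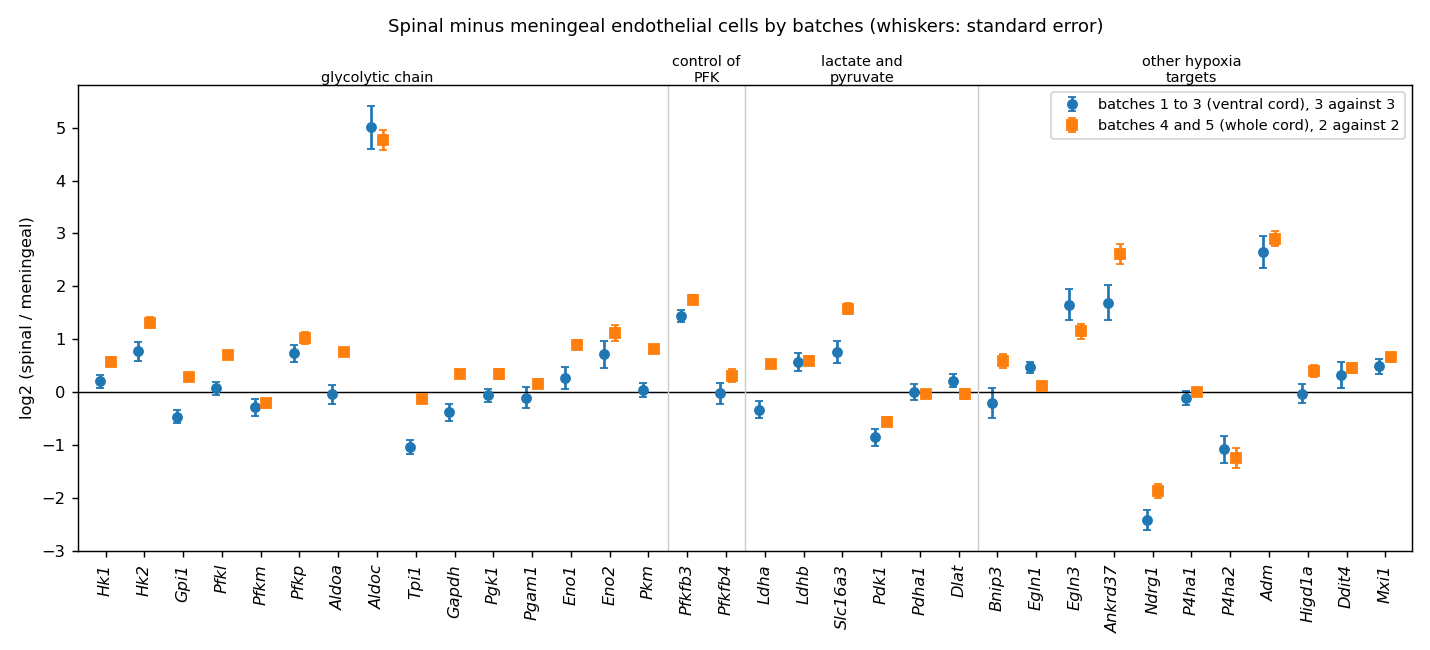
Fitted log2 fold change of spinal over meningeal endothelial cells for the 34 members by role, in batches 1 to 3 (blue circles, ventral cord) and in batches 4 and 5 (orange squares, whole cord), with standard errors. Most chain enzymes lie higher in batches 4 and 5, with Aldoa at 0.75 against -0.042, while Aldoc, Adm and Ndrg1 lie far from 0 in both.

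Levels of different genes were compared per kilobase of exon, as ratios within a family, and are a description. Hk2 stood at 0.200 to 0.255 of the level of Hk1 in wild-type endothelial cells and at 0.00611 to 0.0141 in motor neurons. Pfkl stood at 0.896 to 0.979 of Pfkm in wild-type and 1.25 to 1.26 in knockout endothelial cells, with no overlap. Pfkp stood at 0.208 to 0.262 of Pfkm in wild-type endothelial cells and at 0.585 to 0.990 in motor neurons. The enolases crossed over: Eno2 was at 2.03 to 2.42 times Eno1 in wild-type motor neurons and 1.53 to 1.65 in knockout motor neurons, but at 0.337 to 0.414 in wild-type and 0.169 to 0.205 in knockout endothelial cells. The knockout libraries lay below the wild-type libraries in both cell types. Eno1 has copies at up to 99.6 % identity and Eno2 has none, and reads with several alignments are not counted. A loss of Eno1 reads would raise this ratio, and its size was not tested. Ldhb to Ldha crossed over too, at 2.08 to 3.98 in wild-type motor neurons and 0.599 to 0.913 in wild-type endothelial cells, with 1.55 to 2.996 and 0.413 to 0.628 in the knockouts, which overlap wild type although the knockout had the lower ratio within each batch pair of both cell types. Egln3 to Egln1 was 0.141 to 0.216 in wild-type endothelial cells and 0.0373 to 0.0662 in motor neurons, and P4ha2 to P4ha1 was 0.162 to 0.226 in wild-type and 0.248 to 0.284 in knockout endothelial cells. In the regional series Aldoc to Aldoa was 0.0517 to 0.184 in spinal and 0.00240 to 0.00415 in meningeal cells, and Pfkp to Pfkm was 0.517 to 0.754 and 0.233 to 0.351. The balance of Ldhb to Ldha overlapped, at 0.414 to 1.09 and 0.405 to 0.467. Hk2 to Hk1 was 0.227 to 0.366 in spinal and 0.167 to 0.228 in meningeal cells, overlapping at the edge, and P4ha2 to P4ha1 was 0.0538 to 0.105 and 0.139 to 0.178, apart.

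**Figure D5:**
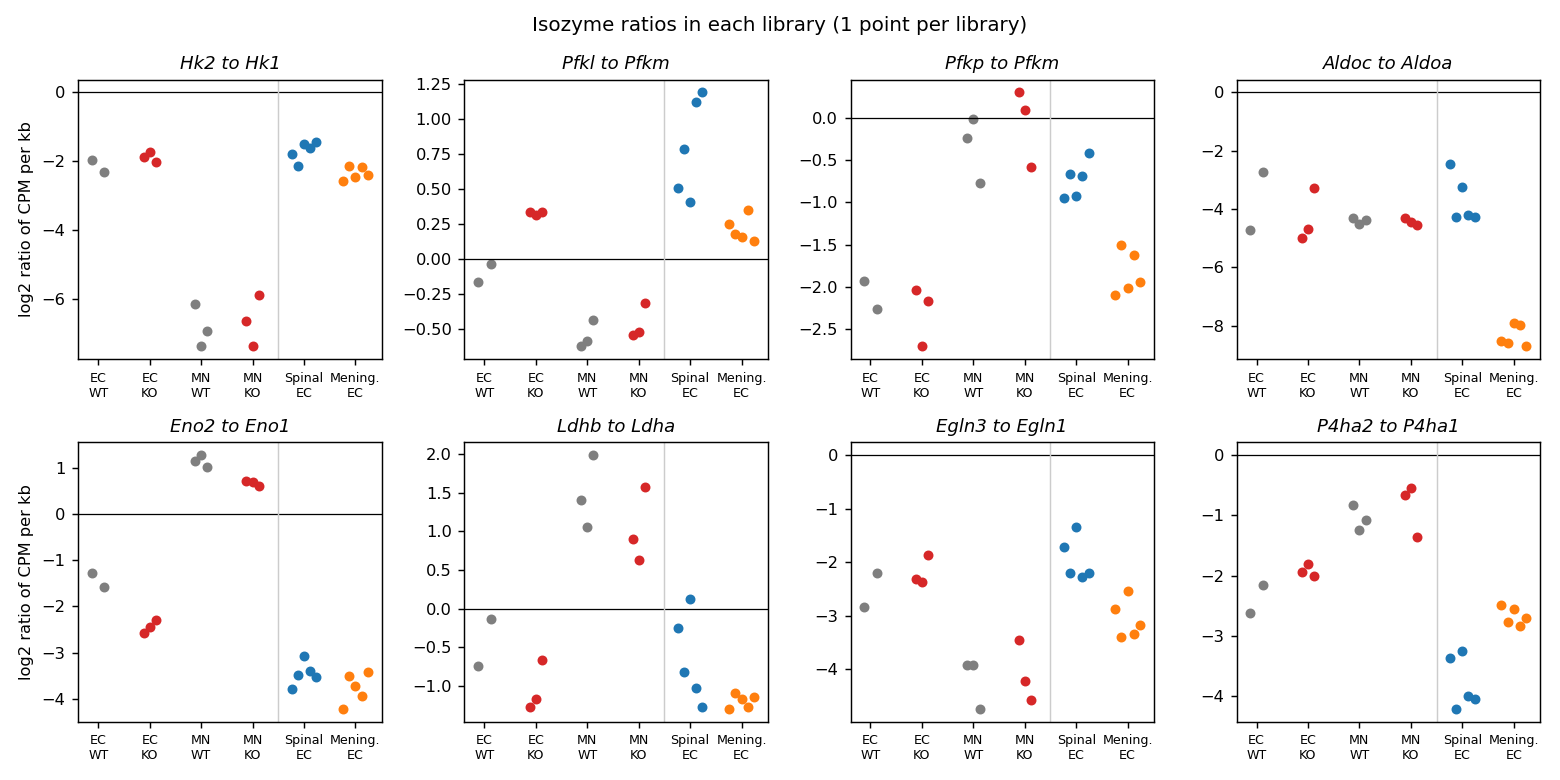
Log2 ratio of CPM per kilobase between isozymes in each library, 1 point per library, for endothelial cells (EC) and motor neurons (MN) of wild-type (WT, gray) and knockout (KO, red) embryos and for spinal (blue) and meningeal (orange) endothelial cells; the line marks equal levels. Eno2 to Eno1 and Ldhb to Ldha lie above the line in all motor neuron libraries and below it in all endothelial libraries of the knockout series.

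Of 48 further genes of the pathway found in the files, glucose transporters, other isozymes, pyruvate handling and the hypoxia-inducible factors with more of their targets, none was called in either knockout comparison, paired or not. Of these 45 were tested in endothelial cells, with 3 at an unadjusted edgeR p under 0.05 without pairing (Eno3, the muscle enolase, Car12, a carbonic anhydrase, and Slc16a1, a lactate transporter, all above 0), and 40 in motor neurons, with 1 (Vegfa). Over all genes 431 of 18209 in endothelial cells and 190 of 16695 in motor neurons were under that limit. Car9 was at 2.95 and 1.73 CPM in wild-type against 3.74, 3.06 and 2.65 CPM in knockout endothelial cells, with overlap, and at most 0.208 CPM in any motor neuron library. Slc2a1, the glucose transporter of barrier vessels, was at 268 and 192 CPM in wild-type against 234, 149 and 199 CPM in knockout endothelial cells, lower within the batch 1 pair and higher within the batch 3 pair. Hif1a, the gene of an oxygen-sensitive factor, was at 183 and 186 CPM and 181, 208 and 194 CPM, and Vegfa, a hypoxia target and the main vessel growth factor, at 198 and 192 CPM and 206, 185 and 164 CPM. All 3 overlapped between genotypes. In motor neurons Slc2a1 was at 21.8, 17.3 and 17.9 CPM in wild type against 19.7, 17.5 and 26.8 CPM in the knockout, and Hif1a at 166, 168 and 174 CPM and 155, 161 and 191 CPM. Vegfa was at 104, 121 and 100.3 CPM in wild-type against 156, 142 and 124 CPM in knockout motor neurons, without overlap, a log2 fold change of 0.37 ± 0.11 (SE; edgeR adjusted p = 0.9997) that was not called, nor was it with pairing (adjusted p = 0.194).

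Between wild-type cell types 17 of 45 pathway genes were higher in endothelial cells and 14 in motor neurons, where 33.8 % and 31 % of all genes were called in those directions. By smallest p these were led by Hif3a, a further factor of the family (4.36 ± 0.19, SE), Plod2, a collagen hydroxylase (2.82 ± 0.16), Pdp1, the phosphatase that reactivates pyruvate dehydrogenase (-1.78 ± 0.10), Arnt (1.44 ± 0.089) and Slc2a1 (3.60 ± 0.23), with edgeR adjusted p-values from 5.12e-08 to 5.34e-07. Pdp1 was the one of these higher in motor neurons. Vegfa was higher in endothelial cells (0.84 ± 0.13) and Hif1a was not called (0.12 ± 0.10). Between regions 8 of 42 were higher in spinal cells and 13 in meningeal cells, where 24.8 % and 23 % of all genes were called. Epas1, an endothelial hypoxia-inducible factor, was at 607, 762, 347, 625 and 606 CPM in spinal and 86.1, 110.3, 110.4, 160.1 and 119 CPM in meningeal cells (2.33 ± 0.22, SE; edgeR adjusted p = 2.89e-06). Slc2a1 was at 1316, 1007, 729, 1479 and 1400.1 CPM and 213, 163, 243, 363 and 273 CPM (2.24 ± 0.24). Both were higher in each spinal library. Vegfa was lower, at 41.9, 22.6, 55.8, 21.8 and 16.6 CPM and 92.4, 119, 115, 102 and 127 CPM (-1.81 ± 0.29, adjusted p = 2.30e-04), as was Slc16a7, a transporter of pyruvate and lactate, at 7.03, 8.42, 9.22, 7.06 and 11.9 CPM and 19.4, 19.5, 14.03, 25.0 and 20.8 CPM (-1.17 ± 0.19). Hif1a was at 147, 175, 145, 138 and 153 CPM and 145, 148, 122, 141 and 142 CPM and not called. Hypoxia targets thus stood on both sides of the regional comparison, with Adm, Ankrd37 and Egln3 higher and Ndrg1, P4ha2 and Vegfa lower in spinal endothelial cells.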

How the data were processed

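RNA-seq counts per gene of 22 libraries were used as deposited. Per the submitters' processing notes, the tools were Trimmomatic 0.39 for trimming, STAR 2.5.3a for alignment to mm10 (GRCm38), featureCounts and DESeq2. Per the file headers, the authors made raw counts with featureCounts 1.6.4 on the GENCODE M22 annotation, without strand in the knockout series and with reverse strand and read pairs in the regional series, so levels were not tested between series. Reads with several alignments are not in the counts, so genes with near-identical copies lose reads. The members and gene lists were chosen with earlier results of these data known.

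The wild-type endothelial batch 2 file, identical to knockout batch 1 with a header naming that library, was left out. The range of library totals is in the report; at these totals 1 CPM is over 15 counts. Each comparison used the quasi-likelihood test of edgeR 4.0.16 (R 4.3.3) on the libraries compared, TMM scaling, the filterByExpr filter (minimum count 10) and Benjamini-Hochberg adjusted p of 0.05 over all genes tested. The 11 knockout-series libraries entered 1 fit for the cell type and interaction contrasts. CPM were computed from TMM-scaled library sizes over each series. The pairing comes from the batch numbers in the labels. Deviations from group means of same-numbered libraries correlated at 0.397 and 0.468 in endothelial cells, at 0.279, 0.318 and 0.271 in motor neurons, and at -0.273, -0.032, 0.303, 0.169 and 0.038 in the regional series, where libraries of different number reached 0.331. Batch as a block, called pairing, is an alternative whose values stand beside results it changes. p-values measure the spread between these pooled libraries. Log2 differences within pairs used a prior count of 2. Copies of members were found with blastn in GENCODE M21 transcripts (pseudogenes at 90 % identity over 300 bases, other genes at 95 % over 500). The pseudogenes, 232 copies of 14 members, were the copies added, and the other genes were listed but not added. The fits were tested on simulated data. Members called in a comparison, or otherwise those of smallest p per role, were given in full, and of pathway genes called in a comparison at most the 5 of smallest p, besides Slc2a1, Vegfa and Hif1a, except 1 gene of the regional comparison that is not reported here. Eno3, Car12 and Slc16a1 were named after their values were seen. Promoters were chosen for printing after their values were seen. Alternatives were DESeq2 1.42.0, other scaling and filters, pairing, joint fits, added copies, part of the batches and leaving out each library.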

Additional observations from a re-analysis of the deposited data

Results flagged for a closer look

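In the groups of 5 libraries, the highest or lowest library was compared with the rest of its group for each member (Dixon's ratio above 0.71). Chance places about 1 in 20 groups beyond this limit, and 3 of the 68 groups tested were beyond it. Pfkfb4 was at 11.4 CPM in spinal batch 2, where the other spinal libraries lay between 14.5 and 15.5 CPM. Ddit4 was at 27.6 CPM in the same library, against 39.4 to 43.0 CPM in the others. Pgam1 was at 26.0 CPM in meningeal batch 2, against 36.7 to 40.8 CPM in the others.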

How the results depend on the processing

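The count of members called higher in knockout endothelial cells was 0 in the main unpaired edgeR fit and moved to 8 with the replicate block (batch), to 7 with copies added and the block, to 5 with DESeq2 and to 5 with DESeq2 and the block. It stayed at 0 under other scaling and filters, in the joint fits with and without the block, and without any 1 knockout library. With the block it was 8 without knockout batch 2. That library has no wild-type partner and adds nothing to the paired contrast, so leaving it out does not probe the result. The other libraries could not be left out of the paired fit, as each leaves 1 pair. In motor neurons the count was 0 in the main fit, with the block and without the block when any 1 library was left out, 2 with DESeq2 and the block, and from 0 to 5 with the block when 1 library was left out: 5 without wild-type batch 3, 3 without knockout batch 3, 2 without wild-type batch 1, 2 without knockout batch 1 and 0 without batch 2 of either genotype. Between wild-type cell types 7 to 9 members were higher and 13 to 16 lower without 1 library. Between regions the count of higher members was 15 in the main fit, 12 in batches 1 to 3 only (with 5 lower), 23 in batches 4 and 5 only (with 3 lower) and 13 to 16 without 1 library. In batches 4 and 5 Gpi1 (0.2849) and Gapdh (0.3478) turned from lower to higher in spinal cells. Of 3016 values of single genes under alternatives, 2915 kept their direction and side of the threshold or had no call to lose, 41 lost a call, 58 gained one and 2 reversed; the cause was not tested. Among values never called, 146 changed sign. The block with copies added, with DESeq2 and with a library left out were chosen after the data had been seen. Genes near 1 CPM or below, such as Adm in motor neurons, rest on few counts.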
